A study of Mus musculus with 12 samples.

Results

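The genes of MHC class I peptide supply were examined in microglia, the resident macrophages of the brain, isolated from the hippocampus of mice. The set consists of 10 named genes, B2m, Tap1, Tap2, Tapbp, Psmb5, Psmb7, Psmb8, Psmb9, Psmb10 and Psmc2, and 8 of them were read from the raw count table by their symbols, out of 545 immune genes in all. Psmb8 and Tap2 were not analysed here. The samples were hippocampal microglia of male BALB/c controls aged 28 postnatal days (P28, n = 6) and 14 postnatal days (P14, n = 6), each animal from its own litter, raised under control conditions within a study of early life stress. Both ages went through a Percoll gradient and a fluorescence sort, so each value is the average over all the sorted cells of an animal. RNA was measured with NanoString's mouse immune panel, in which each target binds a fluorescent barcode and the barcodes are counted without sequencing.

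MHC class I molecules show short peptides from the inside of a cell to CD8 T cells. The proteasome cuts cytosolic proteins into these peptides, the transporter TAP carries them into the endoplasmic reticulum, tapasin (Tapbp) holds TAP and the empty class I molecule together during loading, and beta-2-microglobulin (B2m) is the light chain that every class I molecule needs. The standard proteasome cuts with the subunits encoded by Psmb5, Psmb6 and Psmb7. In immune cells, and in most cells after interferon gamma, Psmb8 takes the place of Psmb5, Psmb9 that of Psmb6 and Psmb10 that of Psmb7, which gives the immunoproteasome. Psmc2 encodes an ATPase of the regulatory particle that unfolds proteins for both forms.

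Summed over the 545 genes, raw counts came to between 1025196 and 1534665 per sample at P28 and between 356398 and 1316430 at P14. Levels below are raw counts divided by the geometric mean of 6 reference genes and are called scaled counts. Probes differ in efficiency, so no member's level was ranked against another's. A count was taken as above background when it was over 2 SD above its lane's average for the 8 negative-control probes. That threshold was 24.8 to 33.4 counts at P28 and 12.9 to 32.0 at P14. The number of samples above background thus depends on the lane as well as on the level. Fold changes are P28 over P14 on the log2 scale, with the SE from edgeR's quasi-likelihood test on raw counts, with p-values adjusted by Benjamini-Hochberg across the 366 tested genes. P14 samples 4 and 5 had the lowest totals, and their scores on the second principal component (5.30 and 9.16) were far from those of the remaining P14 samples (-6.83 to -3.26). Results on the members that rest on them are given with and without them, except for the correlations. Of the genes that mark microglia, Csf1r averaged 100769 ± 4361 scaled counts at P28 and 82169 ± 23448 at P14, and Cx3cr1 averaged 22292 ± 2999 at P28 and 25324 ± 3748 at P14 (SD, n = 6 each). Over the 4 P14 samples other than 4 and 5, Csf1r averaged 96934 ± 3194 and Cx3cr1 22979 ± 1172.

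Microglia at P28 held higher scaled counts of the immunoproteasome subunits Psmb10 and Psmb9 and of the proteasome ATPase gene Psmc2 than microglia at P14, and lower ones of B2m, on counts scaled to the 6 reference genes, whereas with positive controls alone Psmb10, Psmb9 and Psmc2 turned below 0 and were not called. The adaptor gene Tapbp, the transporter gene Tap1 and the standard subunit gene Psmb7 did not pass the test, and Psmb5 was at background. Of the 7 members tested, 3 were higher and 1 was lower at P28, so 4 were called, against 30.6% of all 366 genes tested (16.7% higher and 13.9% lower). The ages did not overlap in scaled counts for the same 4 members, a separation found for 20.8% of the tested genes. The median log2 fold change of the 7 members was 0.42, against 0.00 for all tested genes. With 7 genes, nothing particular to the group is read from these shares. In sorted tissue counted as a whole, fewer cells with a transcript and less of it per cell cannot be told apart.

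**Figure D1:**
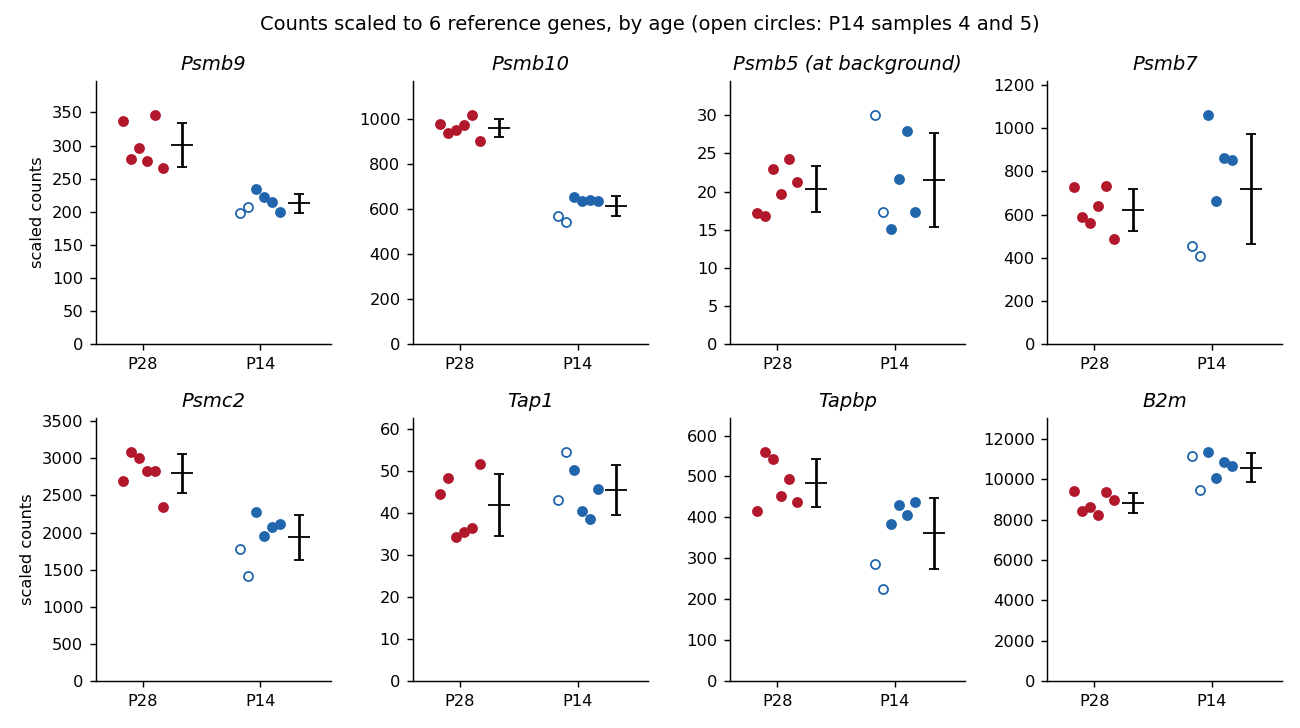
Scaled counts (raw counts over the geometric mean of 6 reference genes) of the 8 members in each sample at P28 (red) and P14 (blue), with the mean and SD of 6 samples beside the points; open circles are P14 samples 4 and 5. The ages separate for Psmb10, Psmb9, Psmc2 and B2m, and the open circles are the lowest P14 points for Psmb7, Tapbp, Psmc2 and Psmb10.

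**Figure D2:**
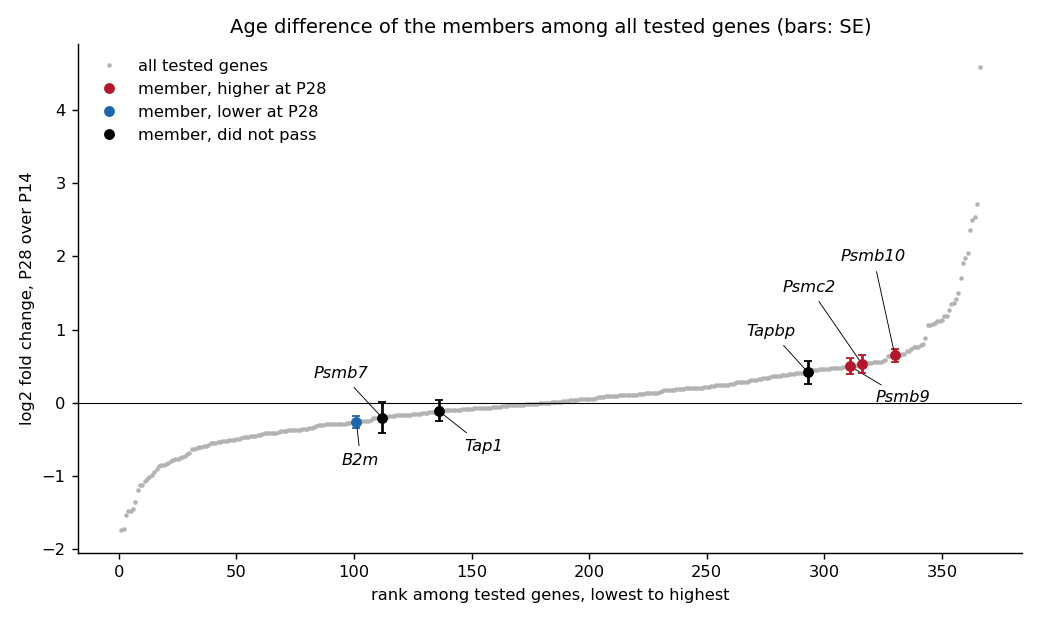
Log2 fold change, P28 over P14, of the 366 tested genes in rank order (grey), with the 7 tested members and their SE drawn over them. Red members passed as higher (Psmb10, Psmb9 and Psmc2, which turn below 0 with positive controls alone), the blue member passed as lower and black members did not pass; Psmb10 stood 37th and B2m 266th from the highest fold change.

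Psmb10, the inducible trypsin-like subunit, had the largest log2 fold change of the tested members on the scale of the 6 reference genes. Its lowest, median and highest scaled counts were 899, 962 and 1014 at P28, against 542, 636 and 651 at P14. Every P28 sample lay above every P14 sample, with a gap larger than the range of either age. Psmb10 averaged 958 ± 39.7 at P28 and 611 ± 45.4 at P14 (SD, n = 6 each), a log2 fold change of 0.65 ± 0.09 with an adjusted p of 7.03e-05 by edgeR, which was -0.09 (adjusted p = 0.819) with counts scaled to positive controls alone. At P14 the low values were those of samples 5 and 4, and the other 4 P14 samples lay between 635 and 651. The authors' deposited table gives Psmb10 a fold of 1.71 between the age means.

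Psmb9, the inducible subunit that replaces Psmb6, was higher at P28 on the same scale, with a smaller fold change. Its lowest, median and highest scaled counts were 266, 288 and 346 at P28, against 198, 211 and 234 at P14. The ranges did not overlap, and P28 samples 118 and 137 were the high ones. Psmb9 averaged 300.45 ± 33.4 at P28 and 213 ± 14.0 at P14, with a log2 fold change of 0.50 ± 0.11 (adjusted p = 0.00328 by edgeR), which was -0.21 (adjusted p = 0.594) with positive controls alone. Unlike Psmb10, its P14 values did not single out samples 4 and 5 together, which had 198 and 208. The authors' deposited table lists a fold of 1.54 for it.

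Psmb7, the standard subunit that Psmb10 replaces, had the widest spread of the tested members at P14, with a coefficient of variation of 35.5%. It ranged from 489 to 734 at P28 with a median of 612, against 408 to 1059 at P14 with a median of 759. The P14 range enclosed the whole P28 range, and its 2 lowest values were samples 5 and 4 (408 and 454). Psmb7 averaged 623 ± 97.3 at P28 and 716 ± 255 at P14 and did not pass the test (log2 fold change -0.21 ± 0.21, adjusted p = 0.528 by edgeR). Without P14 samples 4 and 5, the other 4 P14 samples averaged 859 ± 162, and Psmb7 was then lower at P28 (-0.46 ± 0.14, adjusted p = 0.0201). The call of Psmb7 therefore rests on whether those samples are counted.

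Psmb5, which encodes the standard chymotrypsin-like subunit, gave 15 to 30 raw counts at P28 and 7 to 29 at P14. It was above its lane's background in 0 of 6 samples at P28 and in 3 of 6 at P14, and was not tested. Scaled counts averaged 20.4 ± 3.02 at P28 and 21.5 ± 6.17 at P14, so the unequal detection does not show an age difference. The probe gave no usable level, so nothing can be said of Psmb5 in these cells. Psmb11, the thymus-specific relative of Psmb5, was picked out after its values were seen and was above background in 1 of 6 samples at P28 and in 2 of 6 at P14.

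Psmc2, the ATPase gene of the regulatory particle, was higher at P28 on the scale of the 6 reference genes. Its lowest, median and highest scaled counts were 2338, 2826 and 3085 at P28, against 1409.7, 2012 and 2276 at P14. The ages did not overlap, but P28 sample 138 (2338) and P14 sample 16 (2276) nearly met. Psmc2 averaged 2796 ± 263 at P28 and 1936 ± 306 at P14 (log2 fold change 0.53 ± 0.12, adjusted p = 0.00383 by edgeR), which was -0.25 (adjusted p = 0.531) with positive controls alone. Without P14 samples 4 and 5 the log2 fold change of Psmc2 was 0.41 ± 0.09 (adjusted p = 0.00356).

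The comparison of immunoproteasome with standard subunits was made as ratios of raw counts within a sample, which do not depend on how samples are scaled. The 4 ratios that could be formed were tested by exact two-sided permutation over all 924 arrangements of the samples, with Benjamini-Hochberg adjustment over the 4. The ratio of Psmb10 to Psmb7, the pair that exchange places, was 1.34 to 1.84 at P28, against 0.615 to 1.33 at P14. The ranges nearly met, between P28 sample 118 (1.34) and P14 sample 5 (1.33), and did not overlap. The ratio averaged 1.56 ± 0.189 at P28 and 0.939 ± 0.293 at P14, a log2 difference of 0.78 ± 0.20 (exact p = 0.00216, the smallest this design can give, adjusted p = 0.00866). Probe efficiency enters these ratios, so a value of 1 does not mean equal amounts of RNA.

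The ratio of Psmb9 to Psmb7 was 0.434 to 0.545 at P28, against 0.221 to 0.509 at P14. Here the ages overlapped, because P14 samples 4 and 5, at 0.437 and 0.509, lay within the P28 range, while the other P14 samples lay between 0.221 and 0.335. The log2 difference was 0.63 ± 0.21 (exact permutation p = 0.0238, adjusted p = 0.0281). Without P14 samples 4 and 5 the differences were 1.04 for Psmb10 over Psmb7 and 0.92 for Psmb9 over Psmb7. The exact permutation p was 0.00476 for each, the smallest that the remaining samples can give. Samples 4 and 5 held the highest P14 values of both ratios. Their omission could thus only widen the differences and is not added support. Ratios that differ between the ages were common on this panel: of all 66795 pairs of tested genes, 45.4% had an exact p under 0.05 and 21.7% did not overlap. Over Psmb5, whose counts were at background, the log2 differences were 0.70 for Psmb10 (exact permutation p = 0.00866, adjusted p = 0.0173) and 0.54 for Psmb9 (exact permutation p = 0.0281, adjusted p = 0.0281), and these are not measures of a change against Psmb5. The geometric mean of Psmb9 and Psmb10 over Psmb7, given as a description, averaged 0.872 ± 0.0865 at P28 and 0.557 ± 0.187 at P14 (SD, n = 6 each), and the ages overlapped. For the other members, also without a test, the log2 difference was 0.67 for Psmc2 over Psmb7 and -0.59 for Psmb7 over Tapbp. It was -0.005 for Psmb7 over Tap1 and -0.12 for B2m over Psmb7. A ratio to Psmb7 that was higher at P28 was thus not confined to the immunoproteasome subunits.

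**Figure D3:**
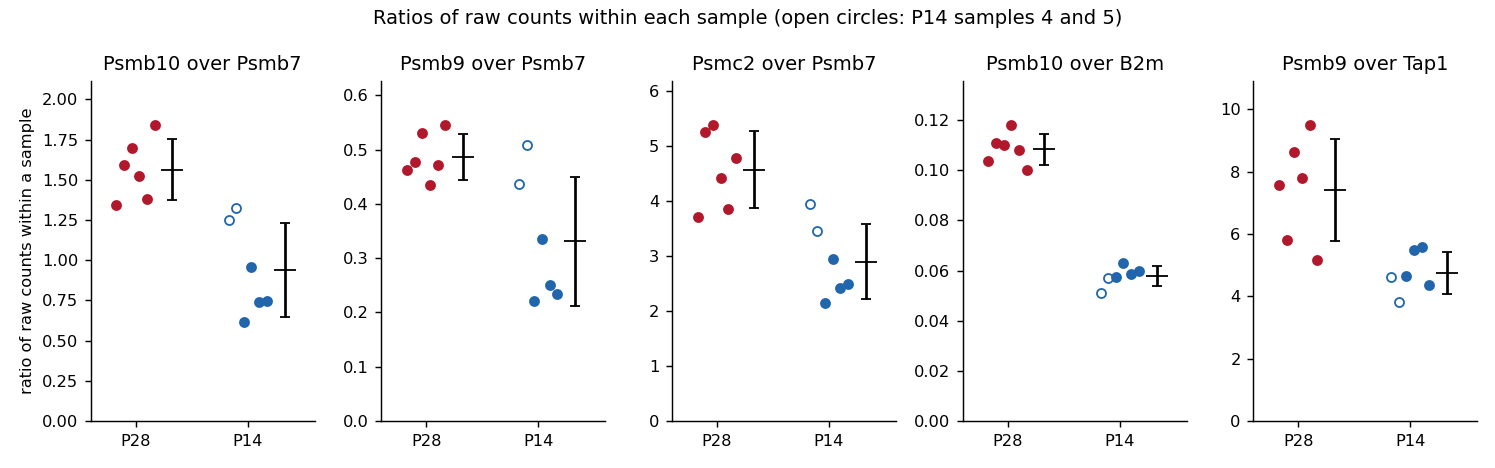
Ratios of raw counts within each sample at P28 (red) and P14 (blue), with the mean and SD of 6 samples beside the points; open circles are P14 samples 4 and 5. The ages separate for Psmb10 over Psmb7 and for Psmb10 over B2m, and overlap for Psmb9 over Psmb7, Psmc2 over Psmb7 and Psmb9 over Tap1.

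Among all pairs of the 7 tested members, 6 of 21 ratios did not overlap between the ages, against 21.7% of all pairs of tested genes. B2m stood in 4 of these, set against Psmb10, Psmb9, Psmc2 and Tapbp, and the others were Psmb10 over Psmb7 and Psmb10 over Tap1. The ratio of Psmb10 to B2m, picked out after its values were seen, was 0.100 to 0.118 at P28 and 0.0508 to 0.0630 at P14, with a coefficient of variation of 5.70% at P28 and 6.94% at P14. P14 samples 4 and 5, at 0.0508 and 0.0572, were the lowest P14 values of this ratio but did not stand far from the rest. Psmb10 and Psmb9 kept a narrow ratio to each other, 2.90 to 3.52 at P28 and 2.61 to 3.19 at P14. Psmb10 over Psmc2 likewise overlapped, at 0.303 to 0.385 at P28 and 0.286 to 0.384 at P14.

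Psmb9 and Tap1 lie head to head in the class II region of the MHC on mouse chromosome 17, next to Psmb8 and Tap2 and between the genes of H2-DM and H2-O. Tap1 encodes one chain of the peptide transporter. In RefSeq (GRCm38.p6) the annotated starts of Psmb9, on the minus strand, and Tap1, on the plus strand, have 225 bases between them, so that 275 bases of their 300-base promoter windows are the same DNA. These bases are shown because a common stretch of DNA lies upstream of 2 members of which Psmb9 was called and Tap1 was not, read on the plus strand from the Psmb9 start towards the Tap1 start (chr17:34187331-34187555).
Psmb9 to Tap1, bases between the starts: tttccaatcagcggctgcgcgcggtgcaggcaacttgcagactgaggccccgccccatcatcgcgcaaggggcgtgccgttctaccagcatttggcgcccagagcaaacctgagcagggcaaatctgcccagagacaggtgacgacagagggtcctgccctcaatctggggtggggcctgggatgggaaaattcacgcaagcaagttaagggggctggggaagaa
No capitals appear in it because neither motif searched was in it. The motifs were the letters GAAANNGAA, a core of interferon-stimulated response elements, and TTCNNNGAA, a core of STAT sites, on both strands, and the second reads the same on each strand. They were in 8.56% and 8.30% of all 32851 promoter windows of the table.

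Tap1 counts were low but above background in all 12 samples. Its lowest, median and highest scaled counts were 34.3, 40.5 and 51.6 at P28, against 38.5, 44.4 and 54.4 at P14. The ages largely overlapped, and P14 sample 5, with 22 raw counts, held the highest scaled value. Tap1 averaged 41.8 ± 7.33 at P28 and 45.4 ± 6.03 at P14 and did not pass the test (log2 fold change -0.11 ± 0.14, adjusted p = 0.603 by edgeR). The ratio of Psmb9 to Tap1, chosen after its values were seen and given without a test, was 5.16 to 9.49 at P28 and 3.82 to 5.575 at P14. The 2 low P28 values, 5.16 in sample 138 and 5.81 in sample 134, lay at the top of the P14 range or just above it. Raw counts of Tap1 were 36 to 62 at P28 and 22 to 60 at P14, where the negative controls averaged 7.13 to 17.4 per lane.

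Tapbp encodes tapasin. It ranged from 416 to 559.6 scaled counts at P28 with a median of 474, against 225 to 437 at P14 with a median of 394. The ages overlapped only through P28 sample 118 (416), since sample 138 (438) lay just above the highest P14 value, and P14 samples 5 and 4 (225 and 285) were far below the others (383 to 437). Tapbp averaged 484 ± 58.5 at P28 and 361 ± 86.3 at P14 and did not pass the test (log2 fold change 0.42 ± 0.16, adjusted p = 0.0652 by edgeR). It passed as higher in 7 alternatives, among them all 14 reference genes (0.50, adjusted p = 0.0103), the authors' factors (0.55, adjusted p = 0.0132) and DESeq2 with the same 6 reference genes (0.41, adjusted p = 0.0283). Without P14 samples 4 and 5 it was 0.23 ± 0.11 (adjusted p = 0.104), and with positive controls alone -0.40 (adjusted p = 0.37). The authors' deposited table gives Tapbp a fold of 1.47 and a p-value of 0.0029.

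B2m was the only tested member called lower at P28. Its promoter is shown because it held a match to the interferon element, GAAACTGAA, whose first base is at position -139 from the annotated start, in capitals here (RefSeq, GRCm38.p6, chr2:122147437-122147736, plus strand, 250 bases before the start and 50 from it on).
B2m promoter: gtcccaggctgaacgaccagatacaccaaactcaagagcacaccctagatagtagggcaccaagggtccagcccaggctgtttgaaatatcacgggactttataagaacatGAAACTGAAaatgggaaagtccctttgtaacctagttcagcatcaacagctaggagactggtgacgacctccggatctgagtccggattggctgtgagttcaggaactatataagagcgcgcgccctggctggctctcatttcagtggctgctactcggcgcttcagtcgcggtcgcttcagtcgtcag
A match describes the letters and does not show that a factor binds there. Promoter windows were given for 7 of the 8 members read here, 8 windows in all because Psmc2 has 2. The interferon element was in 2 of them, that of B2m and 1 of Psmc2, and the STAT core in 0. Psmb7 had no window in the table.

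B2m had scaled counts of 8257, 8811 and 9422 (lowest, median and highest) at P28, against 9470.0, 10751 and 11361 at P14. The ages did not overlap, though P28 sample 118 (9422) and P14 sample 5 (9470.0) nearly met. B2m averaged 8854 ± 493 at P28 and 10594 ± 706 at P14, and the change was small (log2 fold change -0.26 ± 0.08, adjusted p = 0.0263 by edgeR). The call was lost in 10 of 27 alternatives. These were all 14 reference genes (-0.19, adjusted p = 0.0535), the authors' factors (-0.14, adjusted p = 0.218), limma on the authors' values (-0.14, adjusted p = 0.264), all 545 genes tested, and the omission of any of P14 samples 4, 16 and 61 and P28 samples 119, 134 and 135 (log2 fold changes between -0.25 and -0.24, adjusted p = 0.0549 to 0.0627). The authors' deposited table gives a fold of 0.91 and a p-value of 0.0217.

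The heavy chain gene H2-K1, which encodes a classical class I molecule that pairs with B2m, averaged 3972 ± 622 at P28 and 4275 ± 822 at P14. It did not pass (log2 fold change -0.11 ± 0.15, adjusted p = 0.623). The ratio of B2m to H2-K1, described after its values were seen, was 1.81 to 2.76 at P28 and 2.09 to 3.42 at P14 and overlapped. Of the list of other class I and proteasome genes, 5 of 31 were on the panel and 4 were tested. By edgeR 0 of these 4 were called, against 30.6% of all tested genes, 0 had an unadjusted p under 0.05, and DESeq2 and limma called 0. Beside H2-K1 these were the MR1 molecule gene Mr1 (-0.04 ± 0.14), the lipid-presenting molecule gene Cd1d1 (-0.03 ± 0.19) and Psmd7, a subunit of the same regulatory particle as Psmc2 (-0.04 ± 0.14). The list left out Fcgrt and Hfe, class I-like genes whose products also pair with B2m. Picked out after their values were seen, both were lower at P28 by edgeR (-1.04 ± 0.10, adjusted p = 1.45e-06, and -0.38 ± 0.09, adjusted p = 0.0041). H2-Q10, a class I gene known from liver, was above background in 0 of 6 samples at P28 and 1 of 6 at P14. Psmc2 and Psmd7, both of the regulatory particle, thus gave 0.53 ± 0.12 and -0.04 ± 0.14. The difference between them was not tested.

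How samples are scaled moved the members up and down together, with small changes of rank. Over all tested genes, 61 were higher and 51 lower at P28 on the 6 reference genes, 89 and 42 on all 14, 50 and 74 without Polr1b, 51 and 96 on total counts, 8 and 127 on positive controls alone, 75 and 60 with TMM and 93 and 36 with the authors' factors. The median of all tested genes moved to -0.12 without Polr1b, -0.14 on total counts and 0.13 with the authors' factors. The scale factor from positive controls alone averaged 1.39 at P28 and 0.72 at P14, against 1.14 and 0.95 for that from the 6 reference genes. Why the positive controls differ between the ages was not tested. With positive controls alone the 366 tested genes had a median log2 fold change of -0.74, and of the 7 members 0 were higher and 2, B2m (-0.99, adjusted p = 0.0228) and Tap1 (-0.83, adjusted p = 0.0466), were lower. Relative to the median of all tested genes, Psmb10 was at 0.63 to 0.65 in all 7 scalings, Psmc2 at 0.49 to 0.53, Psmb9 at 0.48 to 0.52 and Tapbp at 0.34 to 0.42. On the other side of that median, Tap1 was at -0.12 to -0.09, Psmb7 at -0.29 to -0.18 and B2m at -0.28 to -0.25. The rank of Psmb10 from the highest fold change was 34 to 39 of 366 across these scalings, and that of B2m 263 to 270. A change of scale factors shifts all genes by nearly the same amount. These positions and ranks could therefore hardly move, and their steadiness is not separate evidence for the members. In ratios to each of the other 365 tested genes, Psmb10 did not overlap between the ages against 38.4% of them (128 with Psmb10 higher at P28 and 12 with it lower), beside 21.7% of all pairs of tested genes. That share was 29.6% for Psmc2 (93 higher and 15 lower), 26.0% for B2m (15 and 80), 23.8% for Psmb9 (74 and 13) and 22.5% for Tapbp (66 and 16), and below the share of all pairs for Psmb7 at 13.4% (9 and 40) and Tap1 at 11.2% (11 and 30). The shares of Psmb9, Tapbp and B2m are near that of all pairs.

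**Figure D4:**
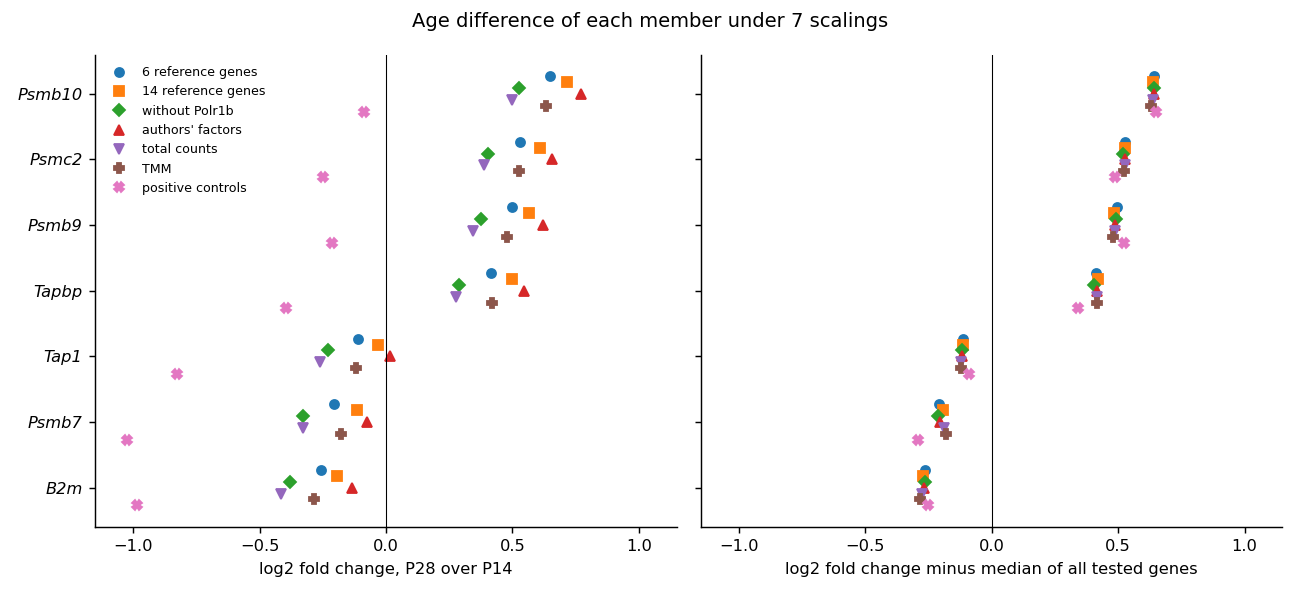
Log2 fold change, P28 over P14, of the 7 tested members under 7 scalings (left), and the same values minus the median of all tested genes under that scaling (right). With positive controls (crosses) every member is below 0 on the left. On the right Psmb10, Psmc2, Psmb9 and Tapbp are above 0 and Tap1, Psmb7 and B2m below it under all 7. A scaling shifts all genes by nearly the same amount, so the right side could hardly differ between scalings.

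Without P14 samples 4 and 5, 5 of the 7 members were called, against 43.2% of all tested genes, with Psmb10 (0.58 ± 0.07), Psmb9 (0.47 ± 0.11) and Psmc2 higher and B2m (-0.28 ± 0.07) and Psmb7 lower. These samples were the 2 lowest at P14 for Psmb10, Psmb7, Psmc2 and Tapbp. For Tap1 sample 5 was instead the highest and sample 4 lay near the middle, and for B2m sample 5 was the lowest and sample 4 the second highest. Whether their low totals bear on these values was not tested.

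The genes that carry interferon signals to the class I genes were examined as a list. Of 18, 16 were on the panel and 14 were tested. By edgeR 0 were called, against 30.6% of all tested genes, with 2 at an unadjusted p under 0.05. DESeq2 and limma also called 0. The median log2 fold change of the 14 was 0.00. The interferon regulatory factor gene Irf7 averaged 79.6 ± 28.5 at P28 and 143 ± 107 at P14 (-0.86 ± 0.38, adjusted p = 0.101), the interferon receptor chain Ifnar2 gave 0.23 ± 0.11 (adjusted p = 0.113), and the interferon gamma receptor chains Ifngr2 and Ifngr1 gave 0.24 ± 0.16 and -0.16 ± 0.13. The interferon genes Ifng and Ifnb1 were not above background often enough to be tested. With P14 samples 4 and 5 left out, 4 of the 14 were lower and 0 higher, near the 24.6% of all tested genes that were lower in that setting. Among these were Irf7 (-1.09 ± 0.39, adjusted p = 0.0399 by edgeR) and Ifngr1 (-0.32 ± 0.09, adjusted p = 0.0148 by edgeR).

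Of the receptors and T cell genes on the other side of class I recognition, 13 of 14 were on the panel and 8 entered the test. Klrd1 and Klrk1 entered it mainly or wholly through the age where they are high, so they are given as values with no test. Klrd1, the CD94 chain of receptors that read class I, averaged 107 ± 8.81 scaled counts at P28 and 15.9 ± 6.26 at P14, and was above background in 6 of 6 samples at P28 and 2 of 6 at P14. Klrk1, the receptor NKG2D, averaged 15.5 ± 2.53 at P28 and 38.1 ± 12.2 at P14, and was above background in 0 of 6 samples at P28 and 5 of 6 at P14. Lilrb3 (0.37 ± 0.18) and Klrc2 (0.20 ± 0.17) did not pass the test, and the CD8 chain gene Cd8a was not above background often enough to be tested.

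Genes of the panel whose scaled counts ran most like those of the immunoproteasome subunits over the 12 samples were Ctss, Icosl and Plau for Psmb10 (Pearson r of 0.99, 0.98 and 0.97) and Icosl, Ctss and Trem2 for Psmb9 (0.92, 0.91 and 0.89). The samples fall into 2 ages and share the scale factors, so the age difference enters these values. With each age centred on its mean, r was 0.89 for Ctss, 0.97 for Icosl and 0.83 for Plau with Psmb10, and 0.57 for Icosl, 0.36 for Ctss and 0.49 for Trem2 with Psmb9. The SD of Psmb10 at P14 was 45.4 with samples 4 and 5 and 7.58 without them. Those samples thus weigh on its r within ages, and no r was computed without them. Ctss encodes cathepsin S, which works on the class II pathway, Icosl a co-stimulatory ligand and Plau the urokinase protease. Plau averaged 1269.5 ± 79.0 at P28 and 779.5 ± 111 at P14 (log2 fold change 0.70 ± 0.11), and Icosl averaged 1809.8 ± 178 at P28 and 847 ± 211 at P14 (1.09 ± 0.16).

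Class I genes are used by nearly all cells, so markers of other cells in the sort are given beside these results, as summed scaled counts of the markers tested. Such a sum weighs each gene by its level and its probe, so 1 gene can carry it, and genes within a list often differed in direction. Several low markers were above background at only 1 age and are given as values.

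Of the T cell markers on the panel 7 of 10 were not tested for want of signal, among them Cd3d, Cd3e, Cd4 and Cd8a. The 3 tested summed to 89.0 to 135 at P28 and 106 to 162 at P14, or 148 to 162 at P14 without samples 4 and 5. Within them Lck averaged 49.5 ± 8.05 at P28 and 98.9 ± 15.4 at P14, while Cd5 averaged 44.8 ± 10.2 at P28 and 20.7 ± 5.17 at P14. The 3 tested of 6 B cell markers summed to 209 to 326 at P28 and 367 to 593 at P14, with Cd79b at 184 ± 46.8 at P28 and 422 ± 84.4 at P14 and Cd79a at 36.5 ± 6.16 at P28 and 20.7 ± 5.94 at P14. The 4 tested of 6 NK cell markers summed to 198 to 308 at P28 and 71.7 to 213 at P14, or 154 to 213 at P14 without samples 4 and 5. These markers ran in opposite directions. Klrd1 had the higher mean at P28, as did Prf1 (103 ± 31.0 at P28 and 63.6 ± 36.9 at P14), which did not pass the test. Klrk1 and Gzma averaged 15.5 and 16.0 at P28 and 38.1 and 28.0 at P14. Both were above background in 0 of 6 samples at P28 and in 5 of 6 at P14. The 5 tested of 6 monocyte and dendritic cell markers summed to 835 to 1032 at P28 and 452 to 837 at P14, with Itgax at 174 ± 24.8 at P28 and 45.2 ± 17.9 at P14. Itgal averaged 18.0 ± 4.09 at P28 and 39.9 ± 8.34 at P14, and was above background in 0 of 6 samples at P28 and 6 of 6 at P14.

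The 3 tested neutrophil markers summed to 4145 to 8228 at P28 and 2829 to 8666 at P14, or 2829 to 3684 at P14 without samples 4 and 5, and S100a8 and S100a9 were not tested for want of signal. Csf3r, which microglia also express, carried that sum, with 5186 ± 1504 at P28 and 4626 ± 2404 at P14. It did not pass the test (0.17 ± 0.28, adjusted p = 0.703 by edgeR), but was higher at P28 without P14 samples 4 and 5 (0.72 ± 0.18, adjusted p = 0.00605). Cxcr2 averaged 14.1 ± 2.89 at P28 and 46.7 ± 7.93 at P14, and was above background in 0 of 6 samples at P28 and in 6 of 6 at P14. The 4 tested endothelial and mural markers summed to 6179 to 14622 at P28 and 3063 to 4850.2 at P14, in which Cd34 averaged 6972 ± 2568 at P28 and 1198 ± 373 at P14 while Cdh5 was lower at P28 (-0.63 ± 0.15, adjusted p = 0.00554 by edgeR). The 4 neuronal and oligodendrocyte genes summed to 6673 to 10174 at P28 and 4333 to 7029.7 at P14. App carried that sum, with 7388 ± 1303 at P28 and 5335 ± 944 at P14. Mbp averaged 468 ± 363 at P28 and 185 ± 69.2 at P14. Cx3cl1 went the other way, with 8.18 ± 3.04 at P28 (above background in 0 of 6 samples) and 27.0 ± 3.20 at P14 (5 of 6). Ncam1 averaged 84.9 ± 146 at P28 and 59.3 ± 15.7 at P14. Its P28 median was 27.3 and its highest P28 value 383. Of the 7 microglial markers 1 was higher (Trem2, 0.71 ± 0.13, below 0 with positive controls alone) and 1 lower (Emr1, -0.72 ± 0.08), and together they summed to 204889 to 242344 at P28 and 197066 to 229103 at P14, or 221187 to 229103 at P14 without samples 4 and 5. The part of other cells in the changes of the members was not tested.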

How the data were processed

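The authors deposited unscaled barcode counts, whole numbers, which were used here for 573 probes (545 genes, 14 reference genes, 8 negative and 6 positive controls). Per the labels' protocols, 2 ng of RNA were amplified with 5 rounds of PCR. Such copies are not independent molecules. A second deposited table holds scores, counts that the authors scaled to positive controls and reference genes, with the authors' fold (a ratio of age means) and p-value per gene, per the file headers. For the counting software a name was not given in the sources used here.

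The age given in the title set each sample's group. Genes above the lane's negative mean plus 2 SD in at least 40% of the 12 samples (366) entered edgeR's quasi-likelihood test (version 4.0.16 under R 4.3.3), age as the only term, the geometric mean of Alas1, Gapdh, Oaz1, Polr1b, Sdha and Tbp as offset, and an FDR of 0.05. On that scale Gapdh, Oaz1 and Polr1b did not overlap between the ages. Alternatives were DESeq2 1.42.0, limma 3.58.1 with pseudocounts of 1 and 10, other scalings and filters, and samples left out. The scripts were tested on simulated data: for P28 over P14, with 366 genes, edgeR found 71 of the 100 altered 1.5-fold, 97 of the 100 altered 2-fold and 1 unaltered gene. Ratios were planned for 6 pairs; those with Psmb8 were not formed.

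The members and lists were chosen with earlier results of these data known. Named genes are the members, from each list the 4 or fewer tested genes of lowest adjusted p, landmark microglial and reference genes, and the 3 genes most like Psmb9 and Psmb10 in log2(scaled count + 1). Of the marker lists only the genes needed are named. The accessions of all 8 members were found in RefSeq (GRCm38.p6). There were 0 per-sample columns without a matching sample. Replicate numbers are not shared between the ages.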

Additional observations from a re-analysis of the deposited data

How the results depend on the processing

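Over the 27 alternatives the tested genes called numbered 86 to 158, against 112. The split moved more: 93 were higher with the authors' factors, 8 higher and 127 lower with positive controls alone, and 96 lower with total counts, 26 with limma on the authors' values and 90 without P14 samples 4 and 5. Members called numbered 2 with positive controls alone and 3 to 5 in the others. Psmb10, Psmb9 and Psmc2 kept their direction and call in 26 of 27 alternatives and turned to -0.088, -0.21 and -0.25 with positive controls alone, where the median of all tested genes was -0.74. Psmb7 was called without P14 samples 4 and 5 only, and Tap1 with positive controls alone only. Leaving out 1 sample at a time gave 102 to 121 called genes, 3 to 5 called members, log2 fold changes of 0.62 to 0.67 for Psmb10, 0.45 to 0.53 for Psmb9 and 0.45 to 0.58 for Psmc2, and Tapbp passed without P14 sample 81 (0.48, adjusted p = 0.0484). The ratios of Psmb10 and Psmb9 to Psmb7 stayed past an exact permutation p of 0.05 in all 15 alternatives (log2 differences of 0.67 to 1.04 and 0.53 to 0.92). The authors' values, among the 15, could hardly change a ratio, because scaling drops out of it. Psmb9 over Psmb5 did not stay past 0.05 throughout. It was 0.44 without P14 samples 4 and 5 (exact p = 0.0619) and 0.41 to 0.66 with 1 sample left out, missing the threshold without P14 sample 4, P28 sample 118 or P28 sample 134. Subtracting the negative-control mean could not be run for ratios over Psmb5, and neither could the authors' values. No paired analysis was possible because the ages share no replicate numbers. The fewest raw counts stand behind Psmb5 (7 to 30) and Tap1 (22 to 62).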
